A study of Mus musculus with 6 samples.

Results

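The atrophy ubiquitin ligases and FOXO factors were 9 genes: the ubiquitin ligases Fbxo32, Trim63, Fbxo30, Fbxo21, Nedd4 and Cblb, and the transcription factors Foxo1, Foxo3 and Foxo4. Every probe set annotated with 1 of these symbols was taken as a member, which gave 25 of the 45037 probe sets that were not controls. Of these, 22 passed the filter on low signal and 3 fell below it. For a single value per gene, each was read by its brightest probe set, and all 9 were among the 13113 genes tested. One further probe set carried the symbol of Foxo3 beside that of a predicted gene and was left out.

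The samples were hind limb skeletal muscle from 6 mice aged 4 weeks, each isolated on its own and hybridized to 1 Affymetrix array. A group of 3 mice was wild type, and a group of 3 was deficient in the laminin alpha 2 chain, the subunit by which laminin-211 anchors muscle fibres to their basement membrane. The labels name neither the allele nor the strain, and no treatment. They call the 3 samples of each group biological replicates. The comparison asks how the muscle of the deficient mice differed from that of the wild type mice.

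In wasting muscle, contractile and other proteins are marked with ubiquitin and broken down by the proteasome. Fbxo32 (atrogin-1, or MAFbx) and Trim63 (MuRF1) are the ubiquitin ligases best known for rising in muscle atrophy of many causes. The FOXO factors are held in the cytoplasm when AKT, the kinase downstream of insulin and IGF1, phosphorylates them. When AKT activity falls they enter the nucleus and switch on ligase and autophagy genes. Their activity is set mainly by phosphorylation and location, which an RNA array does not read.

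Signal is on a linear scale, and each mean is followed by its SD (n = 3 in either group). Fold changes are deficient minus wild type in log2(signal + 16), a scale that compresses the changes of dim probe sets. The medians of the 6 arrays lay between 20 and 26.1 signal units, and the number of arrays limits the precision. Lama2, the gene of that chain, read 326.2 to 428.7 in wild type and 31.1 to 140.4 in deficient libraries, which do not overlap. The Y-linked transcript Eif2s3y read 10.7 in wild type replicate 3 and 9.1 in deficient replicate 3, against 414.6 to 573.7 in the other 4 libraries. The ratio of 5 prime to 3 prime actin control signal was 1.04 to 1.15 in wild type and 0.51 to 0.819 in deficient libraries, while that of Gapdh overlapped. Summed over 10 markers, muscle fibre signal was 109263 to 115773 in wild type and 86049 to 117600 in deficient libraries. The 7 markers of regenerating fibres summed to 184 to 617 and to 2747 to 5915, and the 8 macrophage markers to 2907 to 4097 and to 3764 to 10690. In bulk muscle, fewer cells of a type and less RNA per cell cannot be told apart.

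None of the 9 genes passed the test between the groups. With limma and Benjamini-Hochberg adjustment over all genes, 0 of 9 passed an adjusted p of 0.05, where 362 of 13113 genes or 2.76% did, and 0 of 9 had an unadjusted p under 0.05, where 18.9% of genes did. With a term for the presence of Y-linked transcripts (Eif2s3y above 100) as a block, 0 of 9 were still called, where 1160 of 13113 genes were. In that fit 2 of 9 had an unadjusted p under 0.05. The share of all genes at that p was not computed, so the count is no result about the members. In the fit without the block, the adjusted p of the 9 lay between 0.288 for Cblb and 0.963 for Foxo4. The fold change was above 0 for 7 genes and below 0 for Nedd4 and Foxo4. The values of the groups overlapped in all 9, while in 24.7% of all genes they did not. The high values came mostly from 1 mouse: in 7 of 9 the highest value of all 6 libraries was that of deficient replicate 3, which was the highest library for 21.6% of all genes. Without that library and with the same probe sets, an alternative added after the data were seen, the log2 fold change was below 0 for 6 of 9, and it was 0.095 for Fbxo32, 0.38 for Fbxo30 and 0.30 for Cblb.

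**Figure D1:**
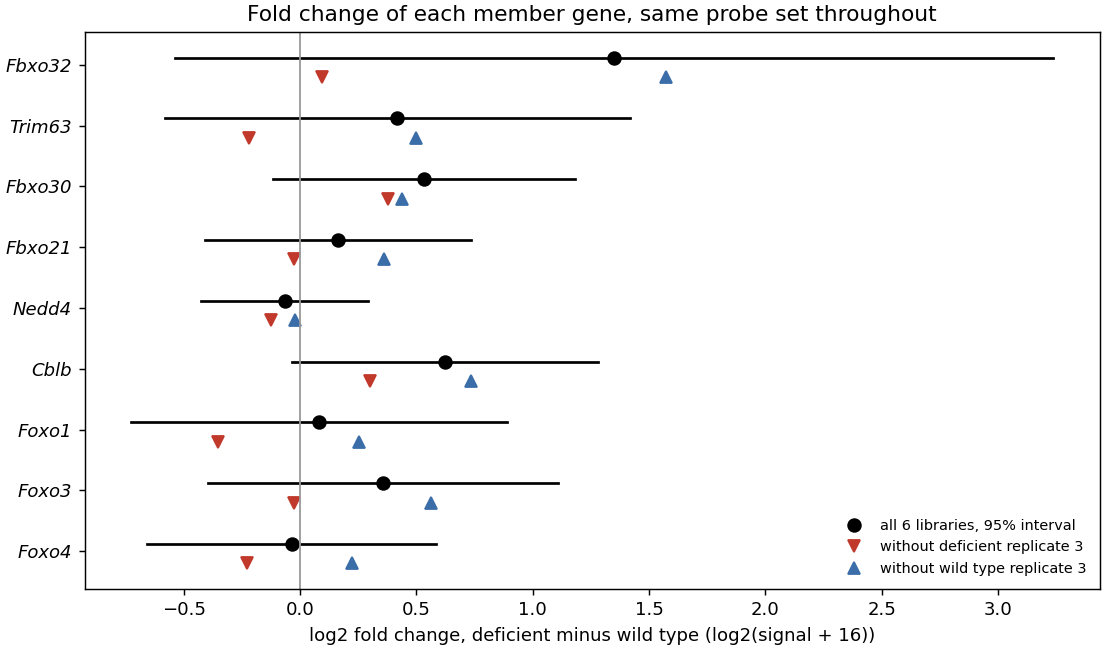
Log2 fold change of each member gene, deficient minus wild type (x axis, log2(signal + 16)). Black points with bars are the value over all 6 libraries and its 95% interval, red triangles the value without deficient replicate 3, and blue triangles that without wild type replicate 3. All symbols of a gene are from the same probe set. Every interval crosses 0, and 6 of the 9 red triangles lie left of it.

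Fbxo32, the F-box subunit of an SCF ubiquitin ligase, carries 3 probe sets and lies at chr15:58175879-58214892 (GRCm38.p6). Its brightest, 1448747_at, read 143, 159.1 and 248.4 in the wild type libraries and 218.2, 168.3 and 2814.5 in the deficient ones. Deficient replicates 1 and 2 lay inside the wild type range, and deficient replicate 3 lay 15.3 times above the wild type mean. The group means were 183.5 ± 56.8 and 1067 ± 1514, so the SD of the deficient group was larger than its mean. The log2 fold change was 1.35 (SE 0.842, 95% interval -0.54 to 3.24, adjusted p = 0.424), an interval that holds both no change and a rise of several fold.

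The other Fbxo32 probe sets repeated the high value of the same mouse and differed on the rest. Probe set 1417522_at read 146.2, 120.4 and 226.8 in wild type and 186.9, 124.2 and 2622.5 in deficient libraries, with the same single high library. Probe set 1435265_at read 224.1, 158.4 and 185.2 in wild type and 339.9, 253.2 and 968.6 in deficient libraries. There the lowest deficient value was above the highest wild type value, and this was the only 1 of the 22 member probe sets whose groups did not overlap, against 21.8% of all 27022 probe sets tested. Its log2 fold change of 1.16 (SE 0.408) had an unadjusted p of 0.0171 and an adjusted p of 0.198 over all probe sets, and over its alternatives the adjusted p ran from 0.0683 to 0.433. No member probe set was called, where 1.42% of all probe sets were. Without deficient replicate 3 the log2 fold change was 0.095 for 1448747_at (adjusted p = 0.878), -0.05 for 1417522_at and 0.61 for 1435265_at (adjusted p = 0.212). No source used here says which isoform each probe set reads.

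Trim63, a RING-finger ligase of the sarcomere, has a single probe set, 1438704_at, and lies at chr4:134315120-134329629. It read 1287.6, 1355.2 and 1566.4 in wild type and 1016.1, 1411.5 and 4565.7 in deficient libraries. Deficient replicate 1 was below all wild type libraries, replicate 2 was among them, and replicate 3 was 3.25 times the wild type mean. The wild type libraries differed by 1.22 times at most, and the deficient libraries by 4.49 times. The means were 1403 ± 145 and 2331 ± 1945, with a log2 fold change of 0.42 (SE 0.446, interval -0.58 to 1.42, adjusted p = 0.663). Without deficient replicate 3 it was -0.22.

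The promoter of Trim63 is shown because FOXO factors and the glucocorticoid receptor are both known to act on this gene, and because Trim63 was 1 of the 2 members with a clear lead in that library. In the RefSeq promoter table (GRCm38.p6) 7 of the 9 members had an entry, with 8 windows of 300 bases in all, and Fbxo32 and Foxo4 had none. Each window was searched on both strands for the FOXO core GTAAACA, the E-box CAGCTG, which reads the same on both strands, and the glucocorticoid receptor motif TGTTCT. The last is only a part of the full site of that receptor, and full sites were not searched for. The 250 bases before the start of Trim63, chr4:134314870-134315119 on the plus strand, follow with these motifs in capitals.
Trim63: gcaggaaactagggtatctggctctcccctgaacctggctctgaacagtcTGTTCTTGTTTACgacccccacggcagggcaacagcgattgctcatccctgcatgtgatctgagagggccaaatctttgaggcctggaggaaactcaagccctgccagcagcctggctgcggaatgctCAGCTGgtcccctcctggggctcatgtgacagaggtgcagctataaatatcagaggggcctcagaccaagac
The first capitals are the glucocorticoid receptor motif, 200 bases before the start, followed with no gap and no overlap by the FOXO core on the minus strand, 194 bases before the start. The E-box stands 72 bases before the start. Trim63 was the only 1 of the 8 member windows with a FOXO core, which 3.65% of 32851 promoter windows hold. The E-box stood in 2 of 8 member windows against 16.3% of all, and the glucocorticoid receptor motif in 2 of 8 against 19%, in each case in Trim63 and in 1 window of Nedd4. All 3 motifs together stood in the Trim63 window and in 0.125% of all windows. A match is a description of the letters only.

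Fbxo30 (MUSA1) is an F-box ligase held in check by BMP and SMAD signalling in muscle, at chr10:11281330-11305750, and its 4 probe sets did not move together. The brightest, 1453137_at, read 74.3, 164.9 and 89.6 in wild type and 165.5, 118.1 and 198.2 in deficient libraries, a log2 fold change of 0.53 (SE 0.29, interval -0.12 to 1.18, adjusted p = 0.359). Probe set 1453136_at also was highest in deficient replicate 3, at 149.1 against 51.1 to 86.1 elsewhere. By contrast, 1436550_at was lowest in that library, at 63.1 against 111.2 to 160.9 elsewhere. Probe set 1429441_at had a log2 fold change of 0.09.

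Fbxo21 (SMART), another F-box ligase of atrophy, lies at chr5:117976770-118010198. Its brightest probe set read 75.7, 66.6 and 115.7 in wild type and 73.2, 92.1 and 129 in deficient libraries. The groups covered nearly the same range, with replicate 3 the highest in each, and the log2 fold change was 0.16 (SE 0.255, interval -0.41 to 0.73, adjusted p = 0.783). Its second probe set read 24.6, 38.3 and 54.8 in wild type and 37.4, 39.5 and 54.6 in deficient libraries.

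Nedd4, a HECT-domain ligase that rises in denervated muscle, lies at chr9:72662331-72749851 and had the narrowest interval of the 9 genes. Its brightest probe set read 1478.7, 1545.6 and 1663.8 in wild type and 1617, 1268.8 and 1616.1 in deficient libraries, a log2 fold change of -0.07 (SE 0.16, interval -0.42 to 0.29, adjusted p = 0.87). That interval lies within 1 log2 unit of 0 on both sides. The other probe sets were more scattered, with the lowest value in deficient replicate 2 for both. Probe set 1451109_a_at read 773.8 to 1439.2 in wild type and 424.6 to 1067.1 in deficient libraries (log2 fold change -0.51, adjusted p = 0.485). Probe set 1421955_a_at read 208.6 to 578 in wild type and 86.9 to 324.3 in deficient libraries (log2 fold change -0.86, adjusted p = 0.369).

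Cblb, a RING-finger ligase known for marking the insulin receptor substrate IRS1 in unloaded muscle, lies at chr16:52031230-52208047 and had the smallest p of the 9. Its brightest probe set read 94.1, 103.7 and 128.1 in wild type and 113, 164.3 and 282.9 in deficient libraries. Deficient replicates 2 and 3 were above all wild type libraries and replicate 1 was among them. The log2 fold change was 0.62 (SE 0.294, interval -0.03 to 1.28, unadjusted p = 0.0607, adjusted p = 0.288). Without deficient replicate 3 it was 0.30. Probe set 1455082_at read 288.9 in deficient replicate 3 and 81.2 to 113.9 elsewhere, and 1437304_at read 115 there and 57.5 to 78.7 elsewhere.

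None of the 3 FOXO genes passed the test, and within each group all 3 were highest in replicate 3. Foxo1, at chr3:52268337-52350109, read 193.6, 138.8 and 242.2 in wild type and 125.1, 163 and 376.7 in deficient libraries, a log2 fold change of 0.08 (SE 0.361, interval -0.73 to 0.89, adjusted p = 0.934). Deficient replicate 1 had the lowest value and deficient replicate 3 the highest, so the deficient values enclosed the wild type ones. Its probe set 1416981_at ranged from 140.8 to 233.6 in wild type and from 150.9 to 317.6 in deficient libraries. Probe set 1416982_at ranged from 94.9 to 201.1 and from 89.7 to 224.6, again with replicate 3 on top in each group.

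Foxo3, the FOXO factor most studied as an inducer of Fbxo32 and of autophagy genes in muscle, lies at chr10:42181845-42276695. Its brightest probe set read 160.1, 171.4 and 262.1 in wild type and 163.4, 219.4 and 441.1 in deficient libraries, a log2 fold change of 0.36 (SE 0.335, interval -0.39 to 1.11, adjusted p = 0.613). The second, 1434832_at, read 66.6, 101.6 and 156.3 in wild type and 98, 84.4 and 163 in deficient libraries. Foxo4, on the X chromosome at chrX:101254261-101260873, read 193.1, 153 and 306 in wild type and 160.8, 192.6 and 270 in deficient libraries. It was the only FOXO gene with its highest value in a wild type library, and its log2 fold change was -0.04 (SE 0.277, interval -0.66 to 0.58, adjusted p = 0.963). The 3 member probe sets below the filter, 1 each of Foxo1, Foxo3 and Foxo4, were near the floor of the arrays and were not tested.

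**Figure D2:**
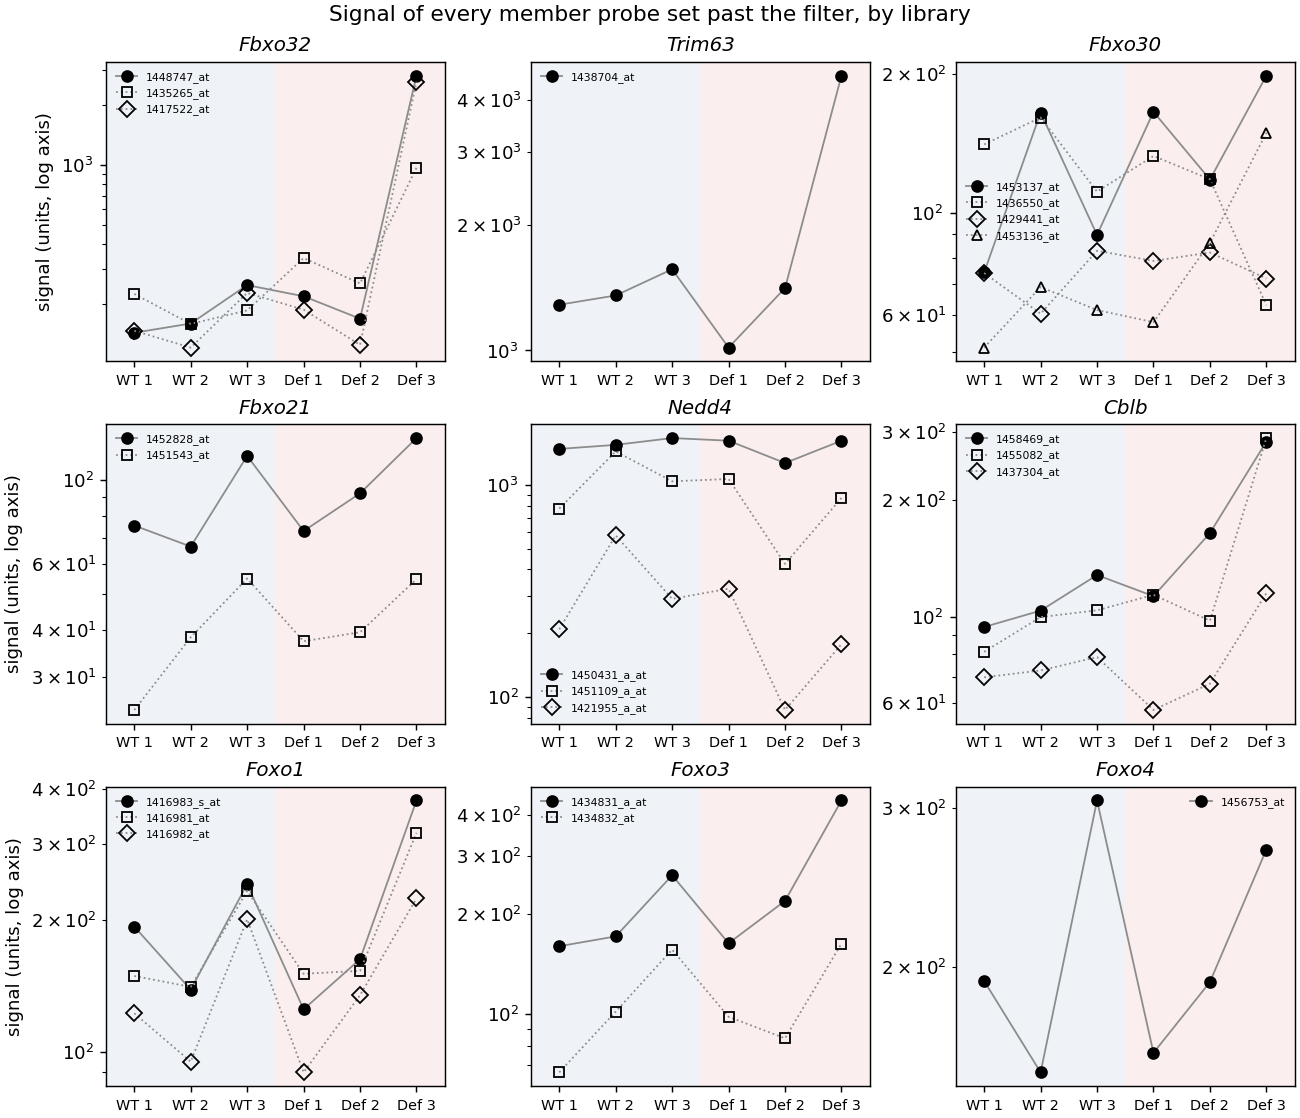
Signal (y axis, signal units, log axis) of the 22 member probe sets past the filter in each of the 6 libraries (x axis; WT wild type, Def deficient), 1 panel per gene, filled circles for the brightest probe set and open symbols for the others. Lines join the values of a probe set and imply no order of the libraries. All 3 Fbxo32 probe sets peak in deficient replicate 3, where 1448747_at reads 2814.5.

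The spread within the deficient group was far from even over the 9 genes. The SD of log2(signal + 16) over the 3 deficient libraries was 2.18 for Fbxo32 and 1.13 for Trim63, against a median of 0.28 over all genes tested. By this SD, Fbxo32 was in place 4 and Trim63 in place 88 of 13113 genes. Foxo1, Foxo3 and Cblb followed, with 3.91%, 5.75% and 9.15% of all genes above them. The SD of Fbxo30, Fbxo21, Foxo4 and Nedd4 was ordinary, with 36% to 69.5% of genes above. The deficient SD exceeded the wild type SD in 6 of 9 members and in 61.5% of all genes, by 5.60 times for Fbxo32 and 7.80 times for Trim63. With 3 libraries a group, a difference in variance was not tested.

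The lead of deficient replicate 3, its log2 value minus the highest of the other 5 libraries, was 3.42 for Fbxo32. That was the largest lead of this library over all 13113 genes, and Trim63, with 1.53, was in place 8. A lead of 1 or more was found for 58 genes or 0.442%, and these were the only 2 members among them. No member had such a lead in another library, where 7 to 37 genes did. Cblb, Foxo3 and Foxo1 led by less than 1. Over the 22 member probe sets, deficient replicate 3 was the highest library in 15.

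**Figure D3:**
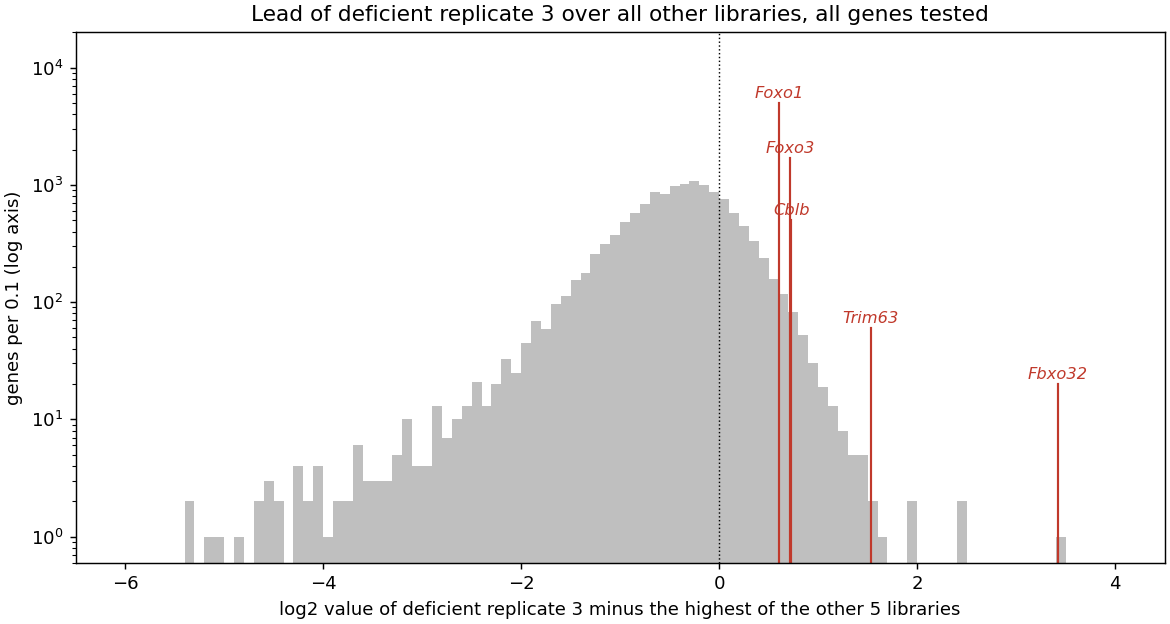
Lead of deficient replicate 3 (x axis, its log2 value minus the highest of the other 5 libraries) for all 13113 genes tested, as a histogram with bins of 0.1 (y axis, number of genes, log axis). Red lines mark 5 members, and their heights carry no value. Fbxo32 stands at 3.42, farther right than any other gene.

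Replicate 3 was also the upper end of the wild type group. Wild type replicate 3 was the highest wild type library in 8 of 9 members, all but Fbxo30, where 36.8% of all genes did so. Deficient replicate 3 was the highest deficient library in 8 of 9, all but Nedd4, against 34.9% of all genes. In 7 of 9, replicate 3 was the highest in both groups, against 17.5% of all genes. The steps differed in size: wild type replicate 3 stood 0.44 above the wild type mean for Fbxo32 and 0.16 for Trim63 on the log2 scale, and deficient replicate 3 stood 3.86 and 1.70 above it. These are the 2 libraries in which Eif2s3y was near the floor, and the part of that difference in the result was not tested. With these 2 libraries left out, a fit chosen after seeing the data, 0 of 9 members were called, Fbxo32 had a log2 fold change of 0.32 by the same probe set (adjusted p = 0.46, between 0.116 and 0.878 over all its alternatives), and Trim63 had -0.14. Deficient replicate 3 also had the lowest sum of 4 adipocyte markers, at 1759 against 3457 to 5911 in the other libraries. Adipoq made up most of that sum, at 1480.5, and Lep, Cidec and Ucp1 were not lowest there. The macrophage sum of deficient replicate 3, at 3764, was the lowest of the deficient group. Whether these differences play a part was not tested.

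The other genes of the pathway were read from 8 lists. Of 27 tested FOXO target genes of muscle atrophy, 0 rose, 1 fell and 26 did not pass, with a median log2 fold change of 0.09 against 0.02 over all genes. The 1 that fell was Sod2, the mitochondrial superoxide dismutase, which read 2303, 2368.9 and 2241.3 in wild type and 1174.5, 1398.7 and 1317.8 in deficient libraries (log2 fold change -0.82, adjusted p = 0.0216). Its call was lost with any 1 wild type library or deficient replicate 1 or 2 left out, with an adjusted p of up to 0.368 without wild type replicate 2 (0.00578 to 0.368 over all alternatives). Ctsl, a lysosomal protease, read 2025.6 to 2294.1 in wild type and 2772.9 to 3570.6 in deficient libraries (adjusted p = 0.0908). Eif4ebp1, a brake on translation, read 457.9 to 708 and 761.5 to 1386.3 (adjusted p = 0.111), and Sesn3, a relative of Sesn1, read 106 to 163.6 and 187.7 to 226.4 (adjusted p = 0.231). In the fit with Y-linked transcripts as a block 4 genes of this list passed, where 1160 of 13113 genes did. Among the 4 were Eif4ebp1 (adjusted p = 0.00651, 0.00651 to 0.314 over all alternatives) and Ctsl (adjusted p = 0.0292, 0.0292 to 0.845 over all alternatives).

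In deficient replicate 3, many genes of that list stood high. It was the highest library for 16 of the 27, or 59.3%, against 21.6% of all genes. In the other lists that share ran from 23.1% for the deubiquitinating enzymes to 52.2% for insulin, IGF1 and AKT signalling. The median distance of the list from the wild type mean was 0.64 in that library, -0.17 in deficient replicate 1 and -0.02 in deficient replicate 2 on the log2 scale, and near 0 in each of them over all genes. For the same list it was -0.10, -0.09 and 0.15 in wild type replicates 1, 2 and 3. Pdk4, a kinase that inhibits pyruvate oxidation, read 6603.2 there and 779.8 to 1235.7 elsewhere. Sesn1, a stress-induced inhibitor of mTORC1 signalling, read 1610 there and 281.7 to 605.1 elsewhere. Ulk1, the kinase that starts autophagy, read 612.1 there and 140.8 to 252.3 elsewhere. Of the other autophagy and mitophagy genes of the list, Gabarapl1, Map1lc3a, Sqstm1 and Bnip3 were highest there, and Map1lc3b, Atg4b, Atg12, Becn1, Pik3c3 and Pink1 were not. Gabarapl1, an ATG8 relative of the autophagosome, read 822.1 there and 343.2 to 522.7 elsewhere.

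Upstream of the FOXO factors, the 23 tested genes of insulin, IGF1 and AKT signalling held 1 gene that rose and 1 that fell, and 21 did not pass (median 0.11). Sgk1, a kinase that phosphorylates FOXO factors much as AKT does, fell from 2534.9, 2632.7 and 3067 to 1329.9, 1167 and 1263.5 (log2 fold change -1.12, SE 0.149, adjusted p = 0.00739). Igf2, a growth factor of fetal and regenerating muscle, rose from 612, 589.7 and 406.1 to 2052, 1520.2 and 3599.9 (log2 fold change 2.05, SE 0.299, adjusted p = 0.0111). Both calls held with each library left out and in the other alternatives run, with an adjusted p of 0.00132 to 0.0459 for Sgk1 and 0.00138 to 0.0489 for Igf2. Both genes had all 3 deficient libraries on 1 side of all wild type ones. Akt1 itself read 356 ± 66.2 in deficient and 204 ± 40.7 in wild type muscle (adjusted p = 0.102), and Igf2r, which clears Igf2 from the cell surface, read 380 ± 87.4 and 222 ± 9.9 (adjusted p = 0.0989). With Y-linked transcripts as a block 6 genes of this list passed, where 1160 of 13113 genes did. Among the 6 were Akt1 (adjusted p = 0.0174, 0.0174 to 0.488 over all alternatives) and Igf2r (adjusted p = 0.0387, 0.0387 to 0.258 over all alternatives). Akt1 also passed without deficient replicate 3 (adjusted p = 0.0373). Igf1r, the IGF1 receptor, was highest in deficient replicate 3, at 908.5 against 126.9 to 322.4 elsewhere. The list's median distance from the wild type mean was 0.40 in that library.

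Among 28 tested partners and modifiers of FOXO factors, 0 rose, 1 fell and 27 did not pass (median 0.16). Sirt3, a mitochondrial deacetylase, fell from 226 ± 15.1 to 125 ± 4.48 (adjusted p = 0.0487). Leaving out any library other than deficient replicate 3 took that p past the threshold, to at most 0.175 without wild type replicate 2 (0.0187 to 0.176 over all alternatives). Ywhab, a 14-3-3 protein of the kind that holds phosphorylated FOXO in the cytoplasm, read 1327 ± 20.5 and 1988 ± 74.8 (adjusted p = 0.0626). Smad3, a transducer of myostatin and TGF-beta signals, read 559 ± 63.1 and 361 ± 23.7 (adjusted p = 0.0997). Prkaa2, the AMPK subunit that can activate FOXO3, read 1170 ± 233 and 710 ± 145 (adjusted p = 0.109). With Y-linked transcripts as a block 4 genes of this list passed, where 1160 of 13113 genes did. Among the 4 were these 3 (adjusted p = 0.0225 for Ywhab, 0.0395 for Smad3 and 0.018 for Prkaa2). Over all alternatives these p ran up to 0.278, 0.304 and 0.398. Prkaa2 also passed without deficient replicate 3 (adjusted p = 0.039).

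Of 27 other inducers of the atrophy ligases, such as cytokine, TGF-beta and glucocorticoid signals, 1 rose, 0 fell and 26 did not pass (median 0.26). Stat3, the transcription factor of IL-6 signalling, rose from 443 ± 68.4 to 877 ± 138 (adjusted p = 0.0351). It too was lost with any library but deficient replicate 3 left out, with up to 0.142 without wild type replicate 1 (0.01 to 0.296 over all alternatives). Socs3, its feedback inhibitor, read 92.6 ± 38.1 and 312 ± 188 (adjusted p = 0.1), and Myog, a myogenic factor that drives Fbxo32 and Trim63 after denervation, read 211 ± 136 and 617 ± 168 (adjusted p = 0.103). Tgfbr1 read 359 ± 24 and 546 ± 20.6 (adjusted p = 0.0935), but with the mean of its probe sets its fold change was -0.16. Of this list, 5 genes passed with Y-linked transcripts as a block, where 1160 of 13113 genes did. Among the 5 were these 3 (adjusted p = 0.0238 for Socs3, 0.00581 for Myog and 0.0383 for Tgfbr1). Over all alternatives these p ran from 0.00873 to 0.294, 0.00581 to 0.284 and 0.0383 to 0.755. Socs3 also passed without deficient replicate 3 (adjusted p = 0.0118). Fkbp5, a glucocorticoid-induced gene, was highest in deficient replicate 3, at 942.8 against 124.9 to 405 elsewhere.

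In the fit without a block, the rest of the ubiquitin machinery held no called gene: 0 of 27 other muscle ubiquitin ligases (median 0.01), 0 of 14 ubiquitin and conjugating enzyme genes (median -0.17) and 0 of 13 deubiquitinating enzymes of muscle (median -0.09). At an unadjusted limma p under 0.05 these lists held 7 of 27, 4 of 14 and 4 of 13 genes, where 18.9% of all genes passed. With lists this short, these counts are not read as a shift. The 4 ligase genes with the smallest p had negative fold changes. Asb2, a ligase subunit that targets filamins, read 1709 ± 248 in wild type and 846 ± 302 in deficient libraries (adjusted p = 0.0526). Kbtbd13, a cullin adaptor of muscle, read 157 ± 15.6 and 85 ± 7.82 (adjusted p = 0.0607), and Trim54 (MuRF3), a relative of Trim63, read 2120 ± 87.7 and 1230 ± 385 (adjusted p = 0.0722). Wwp1, a HECT-domain ligase, read 1112 ± 117 and 778 ± 113 (adjusted p = 0.152). The absence of calls in this list depended on the fit. The fit with Y-linked transcripts as a block, which called 1160 of 13113 genes, called 3 ligases. These were Asb2 (adjusted p = 0.0117), Trim54 (adjusted p = 0.0195) and Kbtbd13 (adjusted p = 0.0276). Without deficient replicate 3, Asb2 (adjusted p = 0.00475) and Trim54 (adjusted p = 0.00617) passed. Over all alternatives these p ran from 0.00249 to 0.201 for Asb2, 0.00392 to 0.222 for Trim54 and 0.0276 to 0.203 for Kbtbd13.

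Among the conjugating enzymes, Ube2d1 read 1279 ± 97.9 in wild type and 703 ± 227 in deficient libraries (adjusted p = 0.068), and Ube2b read 3376 ± 425 and 2178 ± 559 (adjusted p = 0.124). Ube2e1 read 1624 ± 206 and 1176 ± 34.6 (adjusted p = 0.159), while Ube2g2 had the higher mean in deficient libraries, at 346 ± 69.3 and 553 ± 133 (adjusted p = 0.178). With Y-linked transcripts as a block Ube2d1 (adjusted p = 0.0114, 0.00538 to 0.218 over all alternatives) and Ube2b (adjusted p = 0.0453, 0.0376 to 0.37 over all alternatives) passed. Both also passed without deficient replicate 3 (adjusted p = 0.00617 and 0.0386), where the list held 3 calls. Over all genes the fit with the block called 1160, and that without deficient replicate 3 called 665.

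Of the deubiquitinating enzymes, Usp2 read 896 ± 393 and 378 ± 119 (adjusted p = 0.0788), Usp15 read 690 ± 123 and 443 ± 96.8 (adjusted p = 0.15), and Usp13 read 539 ± 24.7 and 356 ± 106 (adjusted p = 0.171). Uchl1 had the higher mean in deficient libraries, at 22.8 ± 6.68 and 45.7 ± 12.2 (adjusted p = 0.192). With Y-linked transcripts as a block, Usp2 (adjusted p = 0.00213, 0.00213 to 0.742 over all alternatives) and Usp15 (adjusted p = 0.0463, 0.0463 to 0.406 over all alternatives) passed. Without deficient replicate 3, Usp2 (adjusted p = 0.0293) and Usp13 (adjusted p = 0.028, 0.0271 to 0.378 over all alternatives) passed. Over all genes these fits called 1160 and 665, in that order. Ubr2, an N-end rule ligase raised in wasting muscle, was the only gene of these 3 lists that led by 1 or more in deficient replicate 3, at 671.9 against 136.1 to 273.2 elsewhere.

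Of 23 genes listed as substrates of the atrophy ligases, not all of them established as such, 1 rose, 0 fell and 22 did not pass (median -0.04). Actn2, the Z-disc alpha-actinin, rose from 2091 ± 284 to 3989 ± 871 (adjusted p = 0.0356), a call lost without each of the wild type libraries and without deficient replicate 2, up to 0.141 without wild type replicate 2 (0.0102 to 0.141 over all alternatives). Vim, the intermediate filament vimentin, read 2087 ± 372 and 4410 ± 1667 (adjusted p = 0.0881). Myh7, the slow fibre myosin heavy chain, read 737 ± 296 and 1794 ± 920 (adjusted p = 0.139). Mybpc2, the fast fibre myosin-binding protein C, read 8660 ± 161 and 6503 ± 1032 (adjusted p = 0.143). With Y-linked transcripts as a block 6 genes of this list were called, where 1160 of 13113 genes were. Among the 6 were Vim (adjusted p = 0.0049, 0.00337 to 0.246 over all alternatives) and Myh7 (adjusted p = 0.0116, 0.0097 to 0.353 over all alternatives). Vim also passed without deficient replicate 3 (adjusted p = 0.00692). The list's median in deficient replicate 3 was -0.03 from the wild type mean.

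**Figure D4:**
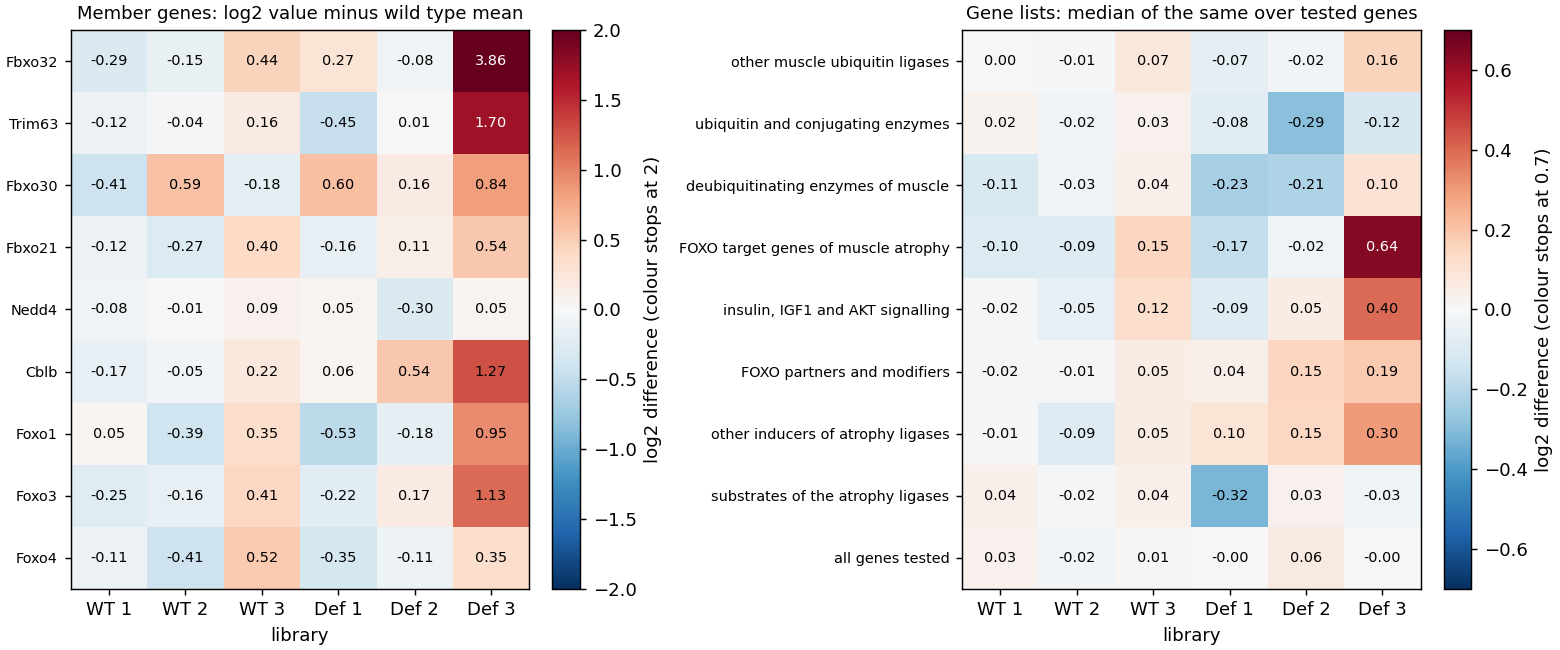
Distance of each library from the wild type mean on the log2(signal + 16) scale (x axis, the 6 libraries; colour and printed number, log2 difference), left for the 9 member genes and right as the median over the tested genes of each list and of all genes. Deficient replicate 3 stands at 3.86 for Fbxo32 and at 0.64 for the FOXO target genes.

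For the 6 members whose log2 values spanned 1 or more, the nearest genes were those with the smallest root mean square difference of centred log2 values over the 6 libraries. Nearest to Fbxo32 were Pdk4 (0.52), Bcl2l11 (0.55) and Zbtb16 (0.61), all of them high in deficient replicate 3. Bcl2l11, the cell death gene of BIM, read 87, 125.5 and 113.2 in wild type and 188.7, 276.2 and 1571.3 in deficient libraries. Zbtb16 (PLZF) read 225.8, 261.3 and 474.7 and then 253.7, 279.6 and 1457.9. None of the 3 followed Fbxo32 as closely as the neighbours of the other members followed theirs.

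Nearest to Trim63 were Zbtb20 (0.17), Atxn2 (0.20) and Ubr2 (0.20). Zbtb20 read 481.5, 577.2 and 642.3 in wild type and 384.2, 557.8 and 1362.2 in deficient libraries, the same order of the 6 libraries but for deficient replicate 2. Nearest to Foxo1 were Rbm20 (0.05), a splicing factor of titin, Alpk2 (0.08) and Ankrd11 (0.09). Nearest to Foxo3 were Patz1 (0.07), Ezh1 (0.08) and Pnpla7 (0.10), and nearest to Cblb were Kmt2a (0.07), 2810410L24Rik (0.09) and Nipbl (0.09). Nearest to Fbxo30 were Pcdhb21 (0.11), Musk (0.12), the receptor kinase of the neuromuscular junction, and Ccn1 (0.13). Pcdhb21 was near the floor of the arrays, at 3.1, 22.6 and 9.8 in wild type and 30.7, 15.7 and 37.9 in deficient libraries. Of the 18, 17 were highest in deficient replicate 3, and Musk was highest in wild type replicate 2. Every gene was a candidate, and the measure was taken over the same 6 libraries, so high neighbours in deficient replicate 3 follow from how they were chosen.

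The promoters of the 58 genes led by deficient replicate 3, a list chosen after their values were seen, were searched for the same motifs. Of these, 46 were in the promoter table, and 4 held a FOXO core: Trim63, Bcl2l11, Sesn1, a p53 and FOXO target, and Pim1, a kinase. The cores are shown in capitals within 27 bases of the plus strand, to let their surroundings be compared.
Trim63: agtctgttctTGTTTACgacccccacg
Bcl2l11: agacactaggGTAAACAcgccggggtg
Sesn1: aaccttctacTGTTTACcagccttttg
Pim1: cccaaagtttGTAAACAggaatcacgt
They lie at chr4:134314916-134314942, chr2:128125801-128125827, chr10:41810586-41810612 and chr17:29493005-29493031. Outside the core the 4 stretches differ, and only that of Trim63 has the glucocorticoid receptor motif directly before it. Some of these genes have several windows, 62 in all. By windows, the FOXO core stood in 4 of 62 or 6.45%, against 3.65% of all windows, the E-box in 13 or 21% against 16.3%, and the glucocorticoid receptor motif in 6 or 9.68% against 19%. Pdk4, which had the largest lead among the FOXO target genes, held none of the 3 motifs in its window.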

How the data were processed

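RNA from hind limb muscle of 3 wild type and 3 laminin alpha 2 chain deficient mice was purified with TRIzol and RNeasy columns, and 1 ug of it went into biotinylated cRNA, per the labels' protocols. The deposited values are linear signal intensities of 45101 probe sets on each array, and the authors' algorithm is not stated in any source at hand. Each array had a trimmed mean of 100, which points to a common scaling before deposit. Groups came from the sample titles.

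Values were taken as log2(signal + 16) with no further normalization, since array medians differed by 0.23 at most. Probe sets below the 40th percentile of mean signal (13.9) were left out. Symbols came from GEO's platform annotation, updated through Entrez identifiers to RefSeq (GRCm38.p6). The probe set with the highest mean, among those with a single symbol, stood for each gene. The test was limma 3.58.1 (R 4.3.3, with the package data.table at 1.17.8): lmFit, then eBayes with its trend option, two-sided and without a block. Every adjusted p is limma's, adjusted by the Benjamini-Hochberg method over all genes or all probe sets tested. Intervals are 95%. The fit was tested on simulated data with normal noise of equal SD in both groups. It recovered 29.8% of 2-fold and 83.6% of 4-fold changes, and 4.38% of its calls were false.

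The members and lists were chosen with earlier results of these data known. Named were all members, of each list up to 4 genes with the smallest p, and the 3 nearest genes of each member whose log2 values spanned at least 1. Other genes were chosen after their values were seen. Alternatives changed the pseudocount, scaling, filter, probe set choice, prior, blocks and libraries, and the fits with libraries left out were also run, after the data were seen, with the probe sets kept.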

Additional observations from a re-analysis of the deposited data

How the results depend on the processing

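The count of 0 members called held in every alternative run. That of 0 members at an unadjusted p under 0.05 became 2 with a replicate block, 2 with Y-linked transcripts as a block and at most 1 with libraries left out. For these fits the share of all genes at that p was not computed, so these counts are no result about the members. The 362 changed genes became 214 with no filter, 171 with no intensity trend, 864 with a replicate block, 1160 with Y-linked transcripts as a block, 828 in the fit without the libraries low in Eif2s3y, added after seeing the data, and 65 to 665 with 1 library left out. In an alternative added after seeing the data, in which the reduced fits kept the filter and probe sets of the fit over all libraries, leaving out a wild type library gave 65, 71 or 219 changed genes in order of replicate number, a deficient library 150, 80 or 677, and the libraries low in Eif2s3y 846. The 385 changed probe sets became 255 with median centring, 223 with no filter, 93 with no intensity trend, 942 with a replicate block, 1253 with Y-linked transcripts as a block and 45 to 681 with 1 library left out. The labels do not say whether replicate numbers pair the mice. Deviations from the group means correlated at 0.15, 0.07 and 0.30 over genes for the same numbers. Wild type replicates 1 and 3 correlated best with the deficient replicate of their own number, and wild type replicate 2 with deficient replicate 1. In a paired fit with the replicate block, the adjusted p was 0.136 for Fbxo32 and 0.114 for Cblb. In this balanced design a block cannot move a fold change.

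The sign of several members turned. With 1 library left out, the log2 fold change ran from -0.22 to 0.85 for Trim63, -0.11 to 0.83 for Fbxo30, -0.025 to 0.36 for Fbxo21, -0.12 to 0.050 for Nedd4, -0.35 to 0.38 for Foxo1, -0.027 to 0.65 for Foxo3 and -0.24 to 0.22 for Foxo4. The lowest values of Trim63, Fbxo21, Foxo1 and Foxo3 were those without deficient replicate 3. That fit gave -0.11 for Fbxo30 because it chose another probe set, 1436550_at. On 1453137_at the value was 0.38. Without the libraries low in Eif2s3y it was -0.14 for Trim63, -0.18 for Foxo1 and 0.031 for Foxo4, and -0.24 for Fbxo30 by 1436550_at but 0.29 by 1453137_at. Foxo4 had 0.12 without deficient replicate 1. Quantile normalization gave 0.0026 for Nedd4. Of the dimmer probe sets, with 1 library left out, 1417522_at of Fbxo32 ran from -0.054 to 2.06, 1429441_at of Fbxo30 from -0.012 to 0.17, 1451543_at of Fbxo21 from -0.063 to 0.34, 1437304_at of Cblb from -0.20 to 0.22, 1416981_at of Foxo1 from -0.15 to 0.39, 1416982_at of Foxo1 from -0.24 to 0.35 and 1434832_at of Foxo3 from -0.16 to 0.37. Probe set 1437304_at had -0.16 without the libraries low in Eif2s3y. Tgfbr1 had -0.16 with the mean of its probe sets. Each reduced fit set its own filter and its own brightest probe set per gene, and beyond that the cause was not tested. The lead of deficient replicate 3 was 2.92 to 3.50 for Fbxo32 and 1.48 to 1.57 for Trim63 over the settings in which it was computed. The number of arrays limits every value, and probe sets near the floor have no order.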

Other observations

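Outside the lists, the 58 genes led by deficient replicate 3 included the following genes, which were named after their values were seen. Depp1, a gene induced by fasting and by FOXO factors, read 1276 in that library and 129.1 to 326.5 elsewhere. Ddit4 (REDD1), an inhibitor of mTORC1, read 784.8 there and 185.8 to 278.5 elsewhere. Ank3, the membrane adaptor ankyrin-G, read 3035.4 there and 549.9 to 778.5 elsewhere, and Tacc2, a centrosomal protein, read 5402.4 there and 925.4 to 1707.8 elsewhere. Pim1, a kinase of cytokine signalling, read 330.9 there and 94.9 to 151.2 elsewhere. None of these 5 passed the test between the groups, with adjusted p of 0.213 for Depp1, 0.313 for Ddit4, 0.43 for Ank3, 0.228 for Tacc2 and 0.36 for Pim1.

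Of the 58, 3 passed the test, where 362 of 13113 genes or 2.76% did. The 58 were chosen by a high value in a deficient library, which itself raises the deficient mean. The count is therefore no result about them. Cdkn1a (p21), which halts the cell cycle, read 1948 in deficient replicate 3, and also 611.9 and 910.7 in the other deficient libraries against 130.4 to 231.9 in wild type (log2 fold change 2.43, limma adjusted p = 0.015). The imprinted genes Peg3 (log2 fold change 1.93, limma adjusted p = 0.0392) and Meg3 (1.93, limma adjusted p = 0.0451) read 3237.4 and 6604.3 in deficient replicate 3, and their other deficient libraries were also above all wild type ones.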
